A study of Mus musculus with 6 samples.

Results

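The 10 genes described here encode the machinery of MHC class II antigen presentation in the mouse: the chain genes H2-Aa, H2-Ab1 and H2-Eb1, the invariant chain gene Cd74, the peptide editor genes H2-DMa, H2-DMb1 and H2-DMb2, the editor's inhibitor genes H2-Oa and H2-Ob, and Ciita, the coactivator of the pathway. They were chosen by name as a pathway, and all 10 were found among the 56262 genes of the count table. RNA-seq was performed on whole lungs of 3 R/R mice and 3 WT mice at 8 weeks of age, without any treatment. R/R mice are homozygous for RBM47 K329R;K332R, a germline knock-in made with CRISPR on the C57BL/6 background that replaces 2 lysines of the RNA-binding protein RBM47 by arginine, so every cell type of these lungs carries the change. WT mice were littermates with unaltered RBM47. The comparison asks whether the class II genes of the resting lung differ between the genotypes.

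MHC class II molecules display peptides from endocytosed proteins to CD4+ T cells. An alpha and a beta chain assemble on the invariant chain, which is cut down by lysosomal proteases until only a short piece stays in the peptide groove; H2-DM then exchanges that piece for other peptides, and H2-O holds H2-DM back, mostly in B cells. B cells, dendritic cells and macrophages make class II constitutively, alveolar type 2 cells of the lung make it as well, and CIITA switches much of the set on, in many cells after IFN-γ. In whole lung RNA, fewer cells of a type and less RNA per cell cannot be told apart.

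Library totals lay between 16501092 and 18141067 read pairs, so 3 counts correspond to at most 0.182 CPM (read pairs of a gene scaled to the size of the library). Defining lung markers were present in all 6 lungs, and Sftpc, the surfactant protein C gene, reached at least 10010 CPM. Rbm47 itself lay between 32.7 and 34.1 CPM in R/R lungs and between 28.8 and 34.4 CPM in WT lungs, which is no check of the labels, since counts per gene do not show which codons an RNA carries. WT replicate 3 stood apart from the other WT lungs: its chi-square per degree of freedom against the R/R lungs was 7.80 to 8.86, whereas WT replicates 1 and 2 gave 14.3 to 15.7. Against WT replicates 1 and 2 it gave 9.03 and 8.63, while those 2 lungs gave 5.65 against each other. WT replicate 3 was thus about as far from its own group as from the R/R lungs. Results that depend on this lung are given with and without it.

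Of the 10 genes, 8 lie in the class II region of chromosome 17, between H2-Oa (chr17:34092340-34095234, plus strand) and H2-Eb1 (chr17:34305867-34316674, plus strand) on GRCm38, while Ciita lies on chr16:10480059-10528418 (plus strand) and Cd74 elsewhere. Class II promoters are known for a shared module in which an X box, bound by the RFX complex, stands a fixed distance before a Y box, bound by NF-Y, and CIITA docks on the assembled complex. RefSeq promoters of GRCm38.p6 were matched for 7 of the 10 genes, by symbol: H2-Aa, H2-Eb1, H2-DMa, H2-DMb1, H2-DMb2, H2-Oa and H2-Ob. H2-Ab1, Cd74 and Ciita had no entry. The 250 bases before each start were searched on both strands for TGATTGG, a Y box core, and AACNNATG, an X box core; the letters do not overlap and were chosen after the sequences had been read.

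The stretches of 4 genes are shown so that a pair with lower means in R/R lungs, H2-Ob and H2-DMb2, can be read beside a pair with higher means, H2-Eb1 and H2-Aa. None of the 4 passed an adjusted p of 0.05 in edgeR's quasi-likelihood test, so these directions are not established. Without R/R replicate 1 the log2 fold changes of H2-Eb1 and H2-Aa were -0.027 and -0.0018. Capitals mark the X box letters, where present, and then the Y box letters, 5′ to 3′ on the strand of the gene. The stretches lie before the RefSeq start and outside the exons that GENCODE gives these genes, at chr17:34238780-34238902 (plus strand) for H2-Ob, chr17:34145124-34145235 (plus strand) for H2-DMb2, chr17:34305742-34305866 (plus strand) for H2-Eb1 and chr17:34287824-34287948 (minus strand) for H2-Aa. The H2-DMb2 stretch lies inside that gene's record of chr17:34143307-34151555. Any start of H2-DMb2 further upstream in that record was not searched.
H2-Ob: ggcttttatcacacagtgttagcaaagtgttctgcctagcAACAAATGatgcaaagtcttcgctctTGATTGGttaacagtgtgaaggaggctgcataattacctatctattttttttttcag
H2-DMb2: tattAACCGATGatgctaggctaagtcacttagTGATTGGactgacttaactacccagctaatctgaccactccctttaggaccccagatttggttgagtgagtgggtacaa
H2-Eb1: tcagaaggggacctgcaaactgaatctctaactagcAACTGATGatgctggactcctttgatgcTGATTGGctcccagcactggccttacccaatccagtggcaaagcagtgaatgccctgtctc
H2-Aa: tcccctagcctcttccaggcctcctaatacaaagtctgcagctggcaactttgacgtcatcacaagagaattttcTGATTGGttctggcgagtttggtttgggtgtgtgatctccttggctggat

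The Y box letters were found in 6 of the 7 matched genes, all but H2-DMa, starting between 45 bases (H2-Oa) and 92 bases (H2-DMb2) before the RefSeq start. The X box letters were found in 4: H2-Eb1, H2-DMb1, H2-DMb2 and H2-Ob. Only these letters were sought, so a gene without them may still hold an X box or Y box of other letters. The lack of X capitals in H2-Aa is thus no sign that the box is missing. From the first letter of X to the first letter of Y there were 29 bases in H2-DMb1 and H2-DMb2, 28 in H2-Eb1 and 26 in H2-Ob. Neither set of letters was in the 2 windows listed for H2-DMa. These windows end at chr17:34122831 and chr17:34125517, inside the H2-DMa record of chr17:34119541-34139101. Any other start of H2-DMa in that record was not searched, so its promoter is not shown to lack the letters. Among 32817 promoter windows, 7.22% held the Y letters, 7.71% held the X letters, and 0.0396% held X before Y on the gene's strand with starts 15 to 45 bases apart. Those were 13 windows, of which 4 belong to the genes described here and a further 1 to H2-Eb2, another class II beta gene. Among the genes that hold the pair, H2-Eb1 and H2-DMb1 had higher means in R/R lungs, and H2-Ob and H2-DMb2 had lower ones. None of these 4 genes was called as different by edgeR's quasi-likelihood test, so these directions are not established. Whether the letters go with the genotype difference was not tested.

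Per kilobase of exon (RPKM, which allows levels to be compared between genes), the order over the 6 lungs was Cd74, H2-Eb1, H2-Ab1, H2-Aa, H2-DMb1, H2-DMa, H2-DMb2, H2-Ob, Ciita and H2-Oa. Cd74 stood alone at the top with a mean of 574 RPKM. H2-Eb1 with 120 RPKM and H2-Ab1 with 107 RPKM overlapped in range, and H2-Aa followed with 72.8 RPKM, below every value of both. The first H2-DM gene, H2-DMb1, had a mean of 21.9 RPKM and was separate from its neighbours, whereas H2-DMa (11.2 RPKM), H2-DMb2 (9.49 RPKM), H2-Ob (5.89 RPKM) and Ciita (4.81 RPKM) followed as a run in which each overlapped with its neighbour. H2-Oa was separate from these and the lowest, with a mean of 2.37 RPKM and a highest lung of 3.18 RPKM. Together the 10 genes took 0.184% to 0.216% of all counts in R/R lungs and 0.185% to 0.188% in WT lungs, and the highest share belonged to R/R replicate 1.

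**Figure D1:**
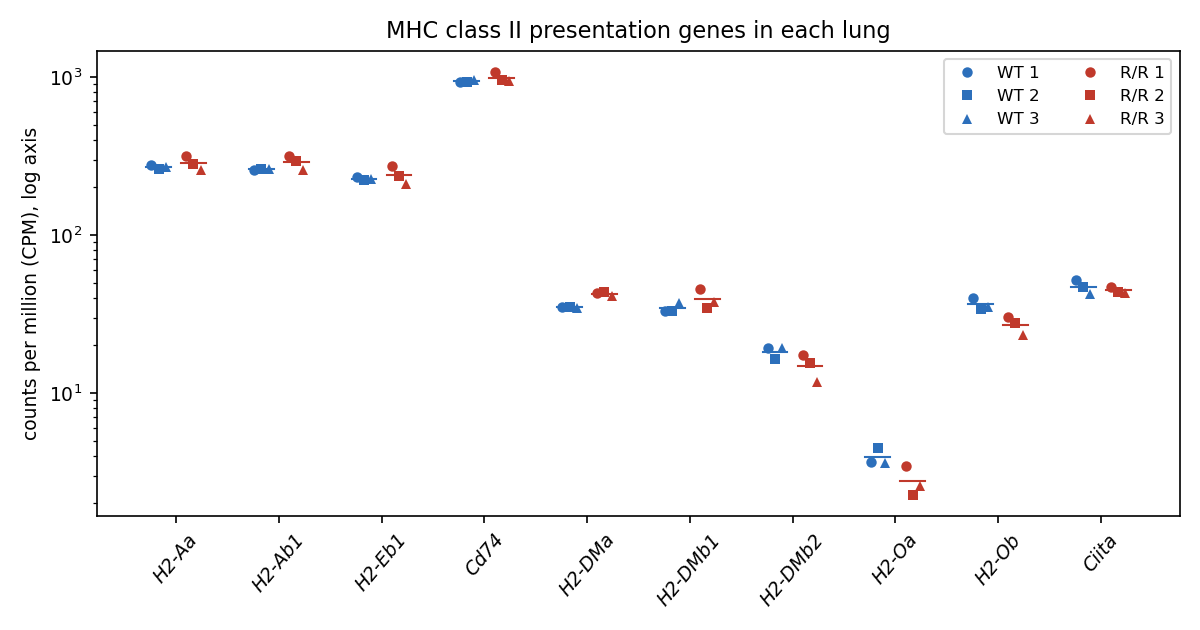
Level of each MHC class II gene in CPM (log axis) in each of the 6 lungs, with WT in blue, R/R in red, a symbol for each replicate number and a line at the group mean. Cd74 sits between 924 and 1077 CPM, H2-Oa between 2.27 and 4.47 CPM, and only H2-DMa, H2-Oa and H2-Ob show R/R and WT points that do not overlap.

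None of the 10 genes passed an adjusted p of 0.05 in edgeR's quasi-likelihood test, in a comparison that called 1.75% of the 17120 genes tested (0.648% higher and 1.1% lower in R/R). DESeq2 called 1 and edgeR's exact test 2, where they called 541 and 630 genes over all. All 10 passed the filter on low counts. Of these, 6 had a higher and 4 a lower mean in R/R lungs, and the median log2 fold change was 0.08, beside 0.0045 over all genes tested. Below an unadjusted p of 0.05 there were 3, and these (H2-DMa, H2-Oa and H2-Ob) were also the ones whose R/R and WT lungs did not overlap, a pattern that 18.7% of all genes tested showed. The share of all genes below that unadjusted p was not computed, so such counts, here and for the lists below, are a description only. Without WT replicate 3 again none was called, and 5 did not overlap, with Cd74 and H2-DMb1 added, against 33.8% of all genes tested in the same 5 lungs. The chains and Cd74 differed little between genotypes, while H2-DMa was the gene with the highest and H2-Oa the one with the lowest log2 fold change.

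**Figure D2:**
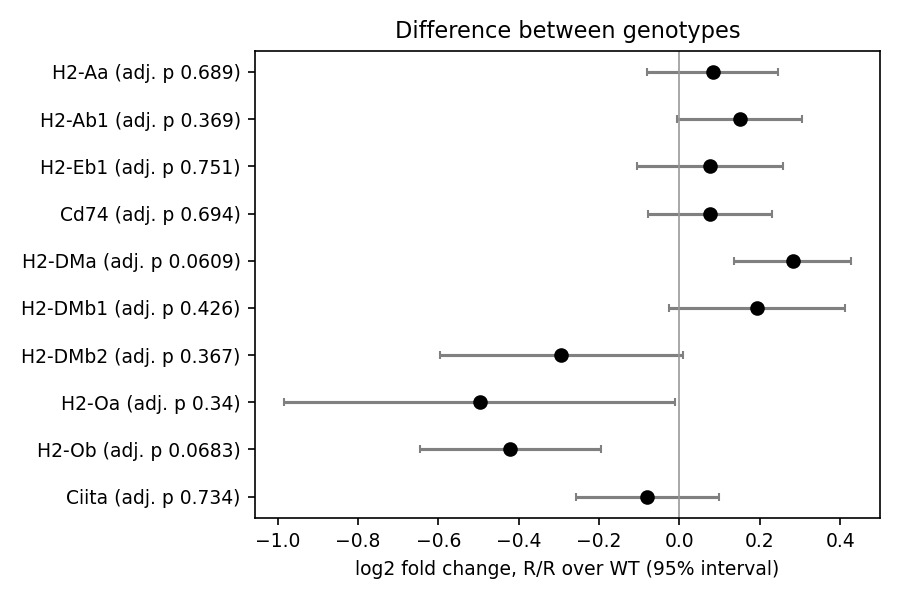
Log2 fold change of R/R over WT for the 10 genes (points) with the 95% interval of edgeR's quasi-likelihood fit (bars) and the adjusted p beside each name. The intervals of H2-DMa, H2-Oa and H2-Ob leave out 0, and the smallest adjusted p is 0.0609.

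The 3 chain genes formed the abundant core. H2-Aa, the alpha chain of I-A, measured 316, 281 and 256 CPM in R/R replicates 1 to 3 and 276, 262 and 267 CPM in the WT replicates. The R/R lungs lay on both sides of the WT lungs, and the log2 fold change was 0.08 ± 0.07 (SE, n = 3 per genotype, adjusted p = 0.689 by edgeR, exact permutation p = 0.6). H2-Ab1, the beta chain that pairs with it, measured 314, 294 and 259 CPM in R/R lungs and 259, 262 and 261 CPM in WT lungs. R/R replicates 1 and 2 were above every WT lung and R/R replicate 3 lay among them, with a log2 fold change of 0.15 ± 0.07 (adjusted p = 0.369 by edgeR) and an interval from -0.0052 to 0.31.

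H2-Eb1, the beta chain of I-E, measured 271, 236 and 210 CPM in R/R lungs and 234, 221 and 225 CPM in WT lungs, again with R/R lungs on both sides (log2 fold change 0.08 ± 0.08, adjusted p = 0.751 by edgeR). Its partner, the I-E alpha chain, is known to be inactive in C57BL/6 mice, and the pseudogene H2-Ea-ps had 0 counts in all 6 lungs, which allows up to 0.182 CPM in the library with the fewest counts. H2-Eb1 RNA was thus measured in lungs without detected RNA for an I-E alpha chain. Without R/R replicate 1, which had the highest value of all 3 chain genes, the log2 fold changes of H2-Aa and H2-Eb1 were -0.0018 and -0.03.

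Cd74, which encodes the invariant chain that fills the groove until the lysosome, measured 1077, 954 and 938 CPM in R/R lungs and 924, 935 and 957 CPM in WT lungs. R/R replicate 1 was the highest and the remaining R/R lungs fell between the WT values (log2 fold change 0.08 ± 0.07, adjusted p = 0.694 by edgeR). R/R lungs varied more than WT lungs in these 4 genes: the coefficient of variation of H2-Ab1 was 9.69% in R/R and 0.652% in WT, and that of Cd74 was 7.68% and 1.80%. The difference in spread was not tested.

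The means of the 3 H2-DM genes differed in direction. H2-DMa, the alpha chain of the editor, measured 43.1, 43.4 and 40.9 CPM in R/R lungs and 35.1, 35.0 and 34.6 CPM in WT lungs. Every R/R lung was above every WT lung, by 1.22-fold in the mean (log2 fold change 0.28 ± 0.07, 95% interval 0.14 to 0.43), with an unadjusted p of 0.0012 and an adjusted p of 0.0609 in edgeR's quasi-likelihood test. The exact permutation p was 0.1, the smallest that 3 against 3 lungs can give. Over the alternatives tried the adjusted p ranged from 0.0256 to 0.191, and it passed 0.05 with edgeR's exact test (0.0256) and without a filter on low counts (0.0323).

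H2-DMb1, the first of the 2 beta chain genes, measured 45.2, 34.7 and 37.6 CPM in R/R lungs and 32.9, 32.9 and 37.2 CPM in WT lungs, so that the R/R lungs overlapped with WT replicate 3 only (log2 fold change 0.19 ± 0.10, adjusted p = 0.426 by edgeR). H2-DMb2, the second, measured 17.4, 15.5 and 11.7 CPM in R/R lungs and 19.2, 16.3 and 19.3 CPM in WT lungs. R/R replicate 3 was the lowest and R/R replicate 1 lay within the WT range, with a log2 fold change of -0.29 ± 0.14 (adjusted p = 0.367 by edgeR). The longest transcripts of H2-DMb1 and H2-DMb2 were 94.9% identical over 1210 aligned bases, with a longest identical run of 221 bases. Of the 150-base words in their transcripts, 4.71% of those of H2-DMb1 and 4.14% of those of H2-DMb2 also occur in the other gene, and pairs that map to both were not counted.

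H2-Oa and H2-Ob, which encode the inhibitor of H2-DM, had the lowest log2 fold changes of the 10. H2-Ob, the beta chain, measured 30.4, 27.6 and 23.4 CPM in R/R lungs and 40.0, 33.8 and 35.2 CPM in WT lungs. No R/R lung reached the lowest WT lung, and the mean stood at 0.747 of the WT level (log2 fold change -0.42 ± 0.10, 95% interval -0.65 to -0.20), with an unadjusted p of 0.0016 and an adjusted p of 0.0683 in edgeR's quasi-likelihood test. The exact permutation p was again 0.1. Over the alternatives the adjusted p ranged from 0.00053 to 0.268. It passed 0.05 with DESeq2 (0.0159), with edgeR's exact test (0.0129) and without a filter on low counts (0.00053). It also passed in the quasi-likelihood test with the replicate number as a block (0.0270), though the numbers were not shown to pair the lungs. With limma-voom it missed 0.05 (0.0755).

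H2-Oa, the alpha chain, was measured on few reads, between 38 and 81 counts per lung. It reached 3.44, 2.27 and 2.59 CPM in R/R lungs and 3.64, 4.47 and 3.63 CPM in WT lungs. The R/R lungs were all lower, but R/R replicate 1 lay just below the closest WT lung, and the log2 fold change of -0.50 ± 0.22 had an interval from -0.98 to -0.0099 (adjusted p = 0.340 by edgeR). The counting took no account of strand: 22.8% of the exon bases of H2-Oa overlap an exon of the antisense gene BC051537, which had 0 or 1 count per lung. For H2-DMa, 10.4% of exon bases overlap Brd2 on the opposite strand, and Brd2 measured 310 to 320 CPM in R/R lungs and 293 to 310 CPM in WT lungs. Pairs that overlapped exons of both genes were not counted for either gene.

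Ciita, the coactivator, measured 47.0, 43.6 and 43.1 CPM in R/R lungs and 51.9, 47.0 and 42.6 CPM in WT lungs. The ranges overlapped and the log2 fold change was -0.08 ± 0.08 (adjusted p = 0.734 by edgeR). Over the 6 lungs, which share the same genotype split and scaling, Pearson's r of log2 CPM between Ciita and H2-Ab1 was -0.03, and between Ciita and Cd74 it was -0.02. With the remaining class II genes, r lay between -0.307 (H2-DMa) and 0.655 (H2-Ob), with 0.354 for H2-Eb1 and 0.291 for H2-Aa.

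**Figure D3:**
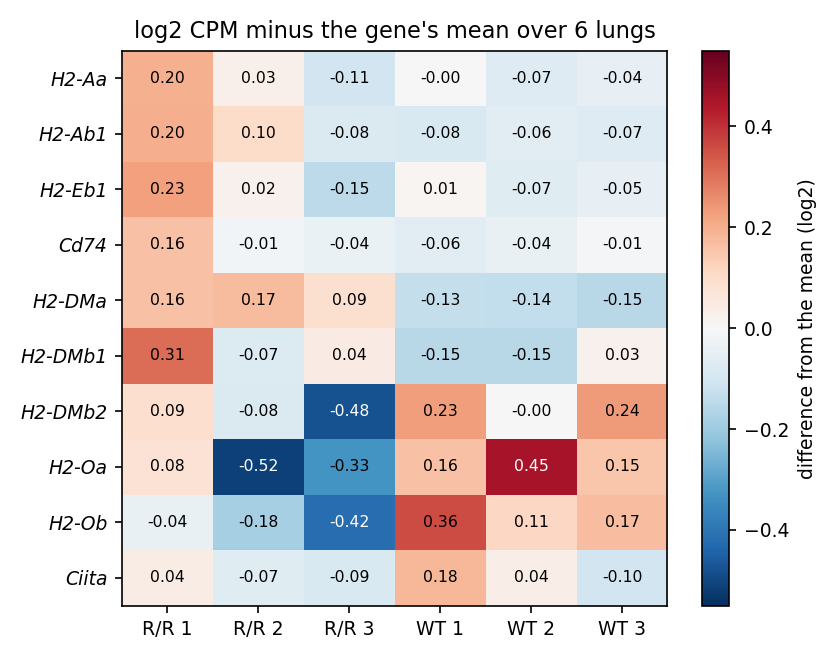
Log2 CPM of each gene in each lung minus the gene's mean over the 6 lungs, with red above and blue below the mean. R/R replicate 1 is above the mean for the chain genes and Cd74, all R/R lungs are above it for H2-DMa, and all R/R lungs are below it for H2-Ob.

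Across the 6 lungs the genes fell into unlike patterns. H2-Aa and H2-Eb1 followed each other closely (r = 0.994), and H2-Ab1 and Cd74 correlated with H2-Aa at 0.900 and 0.886. H2-Ob went with H2-DMb2 (r = 0.912) and H2-Oa (r = 0.738), and opposite to H2-DMa (r = -0.755). These values describe 6 points that share 2 genotypes. The 10 genes outside the pathway whose pattern was most like the mean of H2-Aa, H2-Ab1, H2-Eb1 and Cd74, by Pearson's r of log2 CPM over the 6 lungs, were Sumo3, Cd274, Uqcrc1, Osgep, BC004004, Rpa1, Kctd2, Meis2, Tox2 and Zmat5, with r from 0.965 to 0.988. Cd274, which encodes the checkpoint ligand PD-L1, measured 25.1, 21.6 and 18.6 CPM in R/R lungs and 19.1, 19.2 and 19.6 CPM in WT lungs, and like the chain genes it had its highest value in R/R replicate 1.

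Ratios taken within a lung do not depend on its library size. H2-O to H2-DM, computed as H2-Oa and H2-Ob over H2-DMa, H2-DMb1 and H2-DMb2 in counts per kilobase, was 0.164, 0.160 and 0.151 in R/R lungs and 0.246, 0.242 and 0.211 in WT lungs. The genotypes did not overlap. The ratio is built from the gene values given above, with H2-Oa and H2-Ob lower and H2-DMa higher without overlap. It is therefore no separate evidence of a difference. The geometric mean was 0.158 in R/R and 0.233 in WT, a log2 difference of -0.56 with SDs of 0.06 and 0.12. The exact two-sided permutation p was 0.1, the smallest possible, and 0.3 after adjustment over the 4 ratios computed. Leaving out each lung in turn gave log2 differences from -0.63 to -0.51.

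The ratios among the abundant genes differed little between genotypes. H2-Aa to H2-Ab1 had geometric means of 0.665 in R/R and 0.697 in WT, H2-Eb1 to H2-Ab1 of 1.09 and 1.15, and Cd74 to H2-Ab1 of 5.25 and 5.51. The log2 differences were -0.07, -0.08 and -0.07, and the genotypes overlapped in each, with exact permutation p of 0.2, 0.3 and 0.3.

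**Figure D4:**
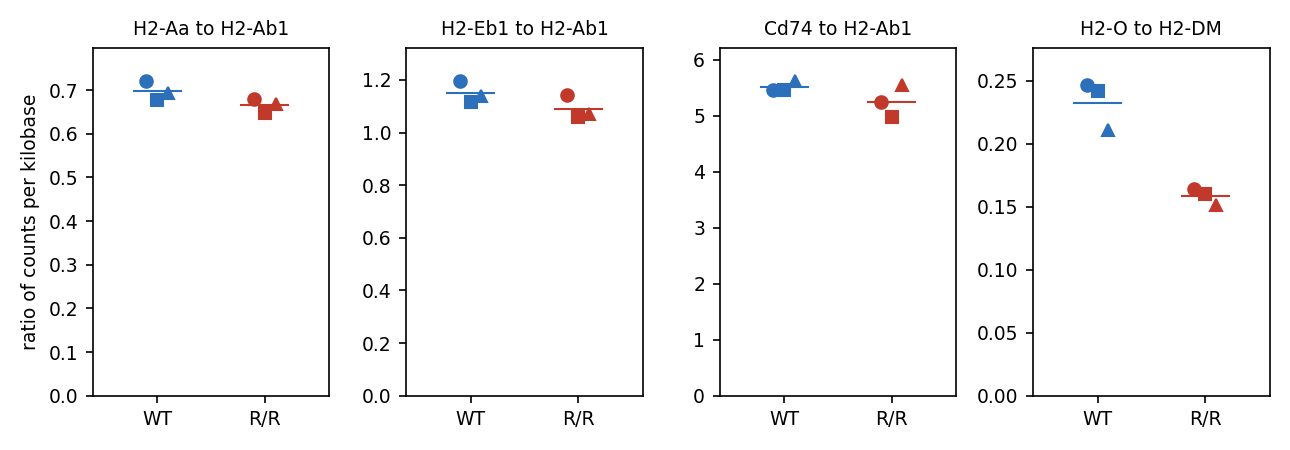
Ratios of counts per kilobase within each lung, with WT in blue, R/R in red, a symbol for each replicate number and a line at the geometric mean. The H2-O to H2-DM ratio lies between 0.151 and 0.164 in R/R and between 0.211 and 0.246 in WT lungs, whereas the other 3 ratios overlap.

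Other genes of the pathway were counted from a list of class II partners. None of the 20 tested was called by edgeR's quasi-likelihood test, by DESeq2 or by edgeR's exact test, with 14 higher and 6 lower in R/R and a median log2 fold change of 0.02. The lysosomal proteases were the most abundant of them. Ctsb (cathepsin B) measured 493, 466 and 475 CPM in R/R lungs and 399, 429 and 465 CPM in WT lungs, with R/R above WT in all lungs (log2 fold change 0.15, adjusted p = 0.340 by edgeR). Ctsd (cathepsin D) and Ctsl (cathepsin L) had log2 fold changes of 0.16 and 0.10, with adjusted p of 0.325 and 0.536.

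Below an unadjusted p of 0.05 there were 5 partners, all of them lysosomal proteases with higher means in R/R: Ctsb, Ctsd, Ctsz, Ctss and Lgmn, of which the last 3 were picked out after their values were seen. Ctss, the cathepsin that trims the invariant chain in B cells and dendritic cells, measured 154, 130 and 134 CPM in R/R lungs and 117, 107 and 128 CPM in WT lungs, without overlap (log2 fold change 0.25, adjusted p = 0.167 by edgeR). Subunits of the promoter complex that CIITA joins stayed near 0: the log2 fold change was 0.0044 for Rfx5, -0.04 for Rfxank, 0.02 for Rfxap, -0.12 for Nfya, 0.02 for Nfyb and 0.06 for Nfyc.

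The route from IFN-γ to Ciita had 11 tested genes, none of them called by the same 3 tests, with 2 higher and 9 lower and a median log2 fold change of -0.03. Jak1 had a log2 fold change of -0.03, Ifngr1 of -0.0014 and Irf1 of 0.05, the 3 with the highest levels. Irf4 was the only one below an unadjusted p of 0.05 (log2 fold change -0.42, adjusted p = 0.321 by edgeR). Ifng itself lay between 0 and 0.331 CPM and was too low to be tested.

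Markers of the cells that make class II differed between genotypes in different directions. All 14 B cell markers had lower means in R/R lungs, 8 of them called, with a median log2 fold change of -0.60. Ms4a1, which encodes the B cell surface protein CD20, measured 11.4, 12.2 and 9.31 CPM in R/R lungs and 25.4, 19.4 and 20.5 CPM in WT lungs (log2 fold change -0.99, adjusted p = 0.00675 by edgeR). Called markers also included Ighm, Ighd, Cd79a, Pax5, Spib and Fcer2a, with log2 fold changes between -1.08 and -0.51. The summed level of the list was 249 to 324 CPM in R/R lungs and 423 to 518 CPM in WT lungs, and neither Ms4a1 nor Cd79a, which define B cells, was at 0.

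The R/R lungs, in which every value of H2-Ob and H2-Oa was below WT, were also those with the lower B cell sums, and R/R replicate 3 had the lowest value of both H2-Ob and the list. H2-Oa did not have the same order, being lowest in R/R replicate 2 and highest in WT replicate 2, the WT lung with the lowest B cell sum. The part of B cell RNA in the H2-Ob, H2-Oa and ratio values was not tested. The B cell count was 3 without R/R replicate 2, 3 without R/R replicate 3, 4 without WT replicate 1, 5 without WT replicate 2 and 10 without WT replicate 3.

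Alveolar macrophage markers were higher in R/R lungs in 10 of 12 cases, with a median log2 fold change of 0.35 and 2 called: Chil3 (log2 fold change 0.68, adjusted p = 0.0233 by edgeR), a chitinase-like protein, and Mrc1 (log2 fold change 0.42, adjusted p = 0.0486 by edgeR), the mannose receptor. Their summed level was 1045 to 1179 CPM in R/R lungs and 743 to 945 CPM in WT lungs, and no marker was at 0. Both calls were lost when any single lung other than WT replicate 3 was left out, and 6 markers were called without WT replicate 3. H2-DMa and Ctss, whose R/R values were all above WT, were measured in the same lungs, and the part of macrophage RNA in those values was not tested.

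Dendritic cell markers went both ways: 10 of 17 tested were higher and 7 lower, and their median log2 fold change was 0.06. None was called by edgeR's quasi-likelihood test, and DESeq2 and edgeR's exact test called 1 each. Below an unadjusted p of 0.05 there were 5, and 4 did not overlap between genotypes, where 18.7% of all genes tested did not. Itgax, the CD11c gene that alveolar macrophages also express, measured 83.9, 66.8 and 77.5 CPM in R/R lungs and 54.8, 56.0 and 65.9 CPM in WT lungs, without overlap (log2 fold change 0.37, adjusted p = 0.0770 by edgeR). Naaa and Ccl22 were also higher without overlap. Ccr7 was lower without overlap, at 12.4, 12.7 and 11.3 CPM in R/R lungs and 14.9, 13.7 and 15.9 CPM in WT lungs (log2 fold change -0.29, adjusted p = 0.238 by edgeR). The defining markers Flt3, Zbtb46, Xcr1, Clec9a and Cd209a all overlapped. The summed level of the list was 448 to 478 CPM in R/R lungs and 438 to 455 CPM in WT lungs, ranges that overlap. Of the markers of monocytes and interstitial macrophages, 1 of 14 was called, the immediate early gene Nr4a1 (log2 fold change 0.76, adjusted p = 0.0148 by edgeR), with 6 higher and 8 lower and a median of -0.02. Of these 14, 7 were below an unadjusted p of 0.05, 6 did not overlap (beside 18.7% of all genes tested), and DESeq2 called 3. Nr4a1 was not called without WT replicate 1, and 3 of these markers were called without WT replicate 3. All 11 alveolar type 2 markers had higher means in R/R lungs, with a median of 0.16. None was called by edgeR's quasi-likelihood test (4 at an unadjusted p below 0.05), 1 was called with DESeq2 and 5 without a filter on low counts. Without WT replicate 3, 2 dendritic cell markers and 2 alveolar type 2 markers were called. The summed level of the alveolar type 2 list in R/R lungs, 26898 to 28306 CPM, was above that of every WT lung, of which WT replicate 3 came closest with 26694 CPM. Sftpc alone held 12428 to 13790 CPM of the sum in R/R lungs and 10010 to 12160 CPM in WT lungs. Only 1 of the 11 markers, Sftpc, did not overlap between genotypes, beside 18.7% of all genes tested.

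**Figure D5:**
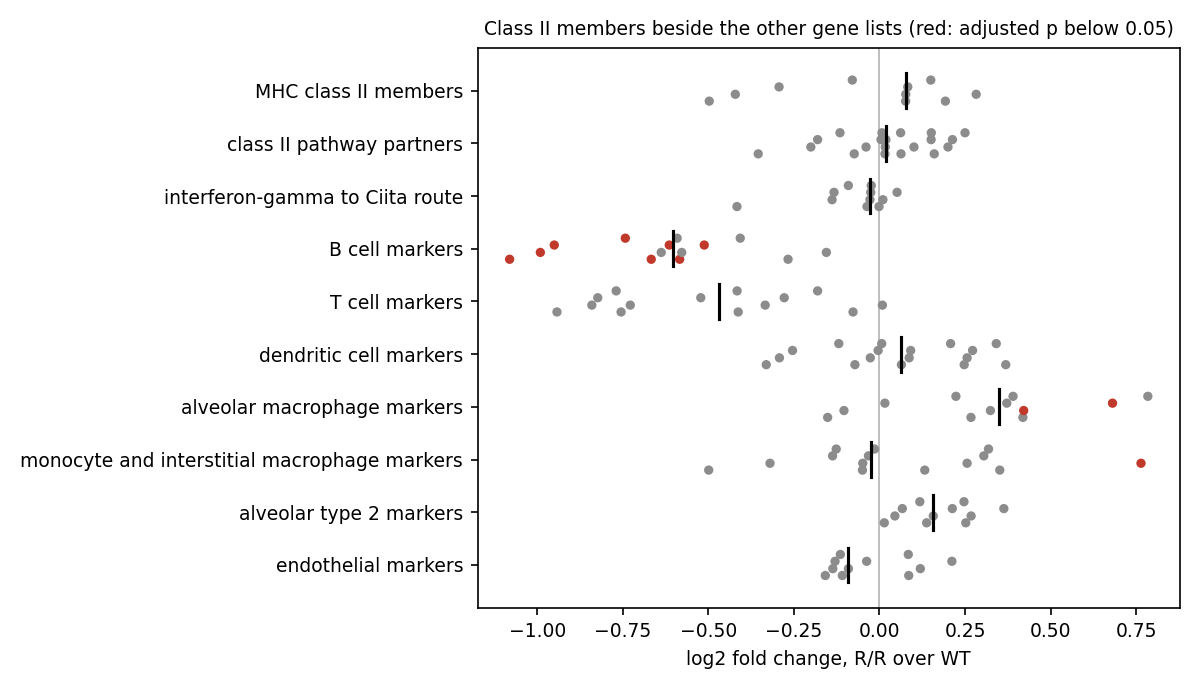
Log2 fold change of R/R over WT for each tested gene of the class II set and of the other lists (points), with genes past an adjusted p of 0.05 in red and the median of each list as a black line. The class II genes straddle 0 with a median of 0.08, between the B cell markers at -0.60 and the alveolar macrophage markers at 0.35.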

How the data were processed

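Lungs of 3 R/R and 3 WT mice were sequenced with paired reads of 150 bases. Per the labels, HISAT2 2.1.0 was the authors' aligner, mm10 (GRCm38) the genome, and the deposited values are unnormalized counts per gene from featureCounts 2.0.1 with GENCODE M25, as the file header states (the supplement names another featureCounts version), without strand and without pairs mapping to several places or genes. The submitters' processing notes also name DESeq2, and the supplement edgeR. Symbols came from GENCODE M21 (55141 of 56262 identifiers matched). In R 4.3.3, edgeR 4.0.16 (filterByExpr with a minimum count of 10 and total of 15, TMM, glmQLFit, glmQLFTest) compared the genotypes. Calls needed an adjusted p (Benjamini-Hochberg) under 0.05. Exact two-sided permutations used log2 CPM (prior count 0.5). RPKM used the deposited exon lengths. Alternatives used DESeq2 1.42.0 and limma 3.58.1. P-values and intervals of the quasi-likelihood test come from the same fit. Both cover counting error and the spread between 3 lungs per group.

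The members and lists were chosen with earlier results of these data known. Named genes are the 10 members; listed genes that were called or were among the 3 most abundant of a list; and the 10 genes of at least 5 CPM most alike to H2-Aa, H2-Ab1, H2-Eb1 and Cd74. Others were named after their values were seen. Permutation p-values of the members were not adjusted. A called B cell marker is not reported here by name.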

Additional observations from a re-analysis of the deposited data

How the results depend on the processing

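The replicate numbers were not shown to pair the lungs: same-numbered lungs had correlations of deviations of -0.014, -0.0036 and -0.015, and 0 of 6 lungs correlated best with its own number. With so few lungs this cannot exclude a pairing. With the replicate block 446 genes were called in place of 300, and of the class II genes 1 was called in place of 0, H2-Ob (log2 fold change -0.43, adjusted p = 0.0270 by edgeR). Of 140 recomputed fold changes of the 10 genes, 132 kept their direction and their side of the threshold, 6 passed it in addition, and 2 reversed. These were H2-Aa and H2-Eb1 without R/R replicate 1, at -0.0018 and -0.027; leaving out single lungs gave -0.0018 to 0.15 and -0.027 to 0.16. Called class II genes numbered 1 with DESeq2, 2 with the exact test, 2 without a filter on low counts and 2 at an adjusted p of 0.1, and 0 whichever lung was left out.

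Over all genes, 541 were called with DESeq2, 630 with the exact test, 1109 without a filter, 40 at an adjusted p of 0.01, 548 at 0.1, and 65 (without WT replicate 1) to 621 (without WT replicate 3) with single lungs left out. Partners called numbered 1 without a filter, Ctss. Calls among the markers of class II cells, 11 as reported, were 20 with DESeq2, 17 with the exact test, 32 without a filter, 19 with the replicate block, 3 and 17 at the 2 other thresholds, and 4 to 23 with single lungs left out. Class II genes without overlap numbered 3 (without WT replicate 1, where 25.9% of all genes tested did not overlap) to 6 (without R/R replicate 3, 31.6%), and 5 without WT replicate 3 (33.8%). The causes of these shifts were not tested. For H2-Oa, with 38 to 81 counts per lung, the 95% interval spans from -0.98 to -0.0099.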

Other observations

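Of the T cell markers, a list that holds genes of both CD4+ and CD8+ T cells, 13 of 14 had lower means in R/R lungs and none was called by edgeR's quasi-likelihood test (8 at an unadjusted p below 0.05), while 4 were called with DESeq2, 5 with edgeR's exact test and 7 without a filter on low counts. The median log2 fold change was -0.47, and Cd8a and Cd8b1, coreceptor genes for class I picked out after their values were seen, had the lowest, -0.94 and -0.84. Their summed level was 74.2 to 89.8 CPM in R/R lungs and 101 to 131 CPM in WT lungs. Cd4, the coreceptor for class II, measured 6.22, 7.05 and 5.42 CPM in R/R lungs and 6.44, 7.01 and 7.73 CPM in WT lungs, ranges that overlap (log2 fold change -0.18, adjusted p = 0.680 by edgeR), and 2 T cell markers were called without WT replicate 2. Lag3, an inhibitory receptor for class II, measured 2.61, 3.17 and 3.06 CPM in R/R lungs and 2.55, 2.32 and 2.75 CPM in WT lungs, also with overlap.

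None of the 11 endothelial markers was called by edgeR's quasi-likelihood test or DESeq2 (2 at an unadjusted p below 0.05), with 4 higher and 7 lower and a median of -0.09. H2-Eb2, the class II beta gene that shares the X and Y letters, measured 2.94, 2.15 and 1.77 CPM in R/R lungs and 2.25, 3.26 and 3.28 CPM in WT lungs.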
